A study of Caenorhabditis elegans with 3 samples.

Results

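The comparison set larvae passed through a bio-electrospray needle against untreated larvae of the nematode Caenorhabditis elegans, by subtracting the log2 level of the control array from that of the bio-electrospray array for every probe set. A probe set was a member if its level exceeded the median of at least 1 of both arrays, which held for 11454 of 22625 probe sets and, taking the brightest probe set with a single gene symbol for each gene, for 8614 of 17118 genes. Both groups were whole animals of strain N2 (Bristol), the wild type, given as first larval stage (L1), from a synchronous culture made by bleaching parents kept on Escherichia coli OP50. The bio-electrospray group was otherwise kept like the controls but passed through a stainless steel needle connected to a high voltage supply; the applied voltage was not used here. A heat shock group (30 °C for 24 h) completed the series. Each group had 1 Affymetrix array, and nothing in the labels says how many cultures or animals an array stands for, so no difference could be checked against replicates, no p-value is given, and the number of arrays limits the precision.

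In bio-electrospraying, a suspension of living material flows through a needle held at a high voltage, and the electric field draws the liquid into a jet that breaks into droplets. Larvae treated in this way meet an electric field, a current and the shear of the jet. In a nematode the tissues that face the outside are the cuticle with the epidermis beneath it and the intestine, which also does most of the detoxification and fat metabolism. Neurons and muscles hold the voltage-gated channels. The comparison asked how much, and in which groups of genes, the RNA of sprayed larvae differed from that of untreated larvae.

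Markers of most larval tissues were measured on both arrays. All 7 intestinal, 6 hypodermal, 7 body wall muscle and 6 pharyngeal markers measured, and 6 of 7 neuronal ones, lay above the median of both arrays. Germline markers did so in 6 of 9 cases, glial ones in 3 of 5, coelomocyte ones in 1 of 3 and embryonic ones in 1 of 7. The yolk genes vit-2, vit-4, vit-5 and vit-6, which adults express, lay below the median on both arrays. The adult collagen gene col-19 was at 3.26 after bio-electrospray and 3.25 in controls, next to medians of 3.157 and 3.147. From the same list of oocyte and adult markers, cpg-1 (4.95 after bio-electrospray and 4.97 in controls) and cpg-2 (4.91 and 4.75) lay above both medians. Of the timing genes of early larvae, lin-28 was measured at 4.39 after bio-electrospray and 4.41 in controls, and hbl-1 at 5.24 and 5.79. By contrast lin-14, a defining gene of this stage, was listed below the median, at 2.39 and 2.37. Of 4 later larval timing genes, 3 lay above both medians, namely lin-29 (5.75 and 6.09), lin-41 (4.28 and 4.45) and nhr-25 (6.02 and 6.02). Sperm markers did so in 4 of 9 cases, among them msp genes, described below. In whole larvae, fewer cells of a type and less RNA per cell cannot be told apart. The 18 hybridization spike-in probe sets, which read transcripts added during the assay, were lower on the bio-electrospray array in 17 cases (median −0.19), 6 of them by at least 1.2-fold. The difference between 5′ and 3′ control probe sets was alike on both arrays for catalase (−3.27 after bio-electrospray and −3.25 in controls), ubiquitin (−4.63 and −4.62) and actin (−0.77 and −0.80), and was −0.62 and −0.85 for Gapdh.

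Most genes differed little. The middle 95% of gene differences ran from −0.38 to 0.33 on the log2 scale, with a median of 0 and an SD over genes of 0.18. Of the 8614 genes, 2945 (34.2%) were higher by any amount after bio-electrospray, 3197 (37.1%) were lower and 2472 (28.7%) had exactly equal values. With quantile normalization of the arrays against each other, 5423 were higher, 3136 lower and 55 equal. A plain count of signs thus has no settled direction, and exact equality, or a class median of exactly 0, depends on the processing. Equal values also occurred at bright probe sets, such as a second eef-1A.1 probe set at 12.05 on both arrays, and their origin was not tested. Sizes told more than signs. At least 1.2-fold apart (0.26 on the log2 scale) were 312 higher genes (3.62%) and 498 lower ones (5.78%), and at least 1.5-fold apart were 70 higher (0.813%) and 50 lower (0.58%). At 2-fold the balance was turned, with 22 genes higher (0.255%) and 4 lower (0.0464%), or 27 probe sets higher (0.236%) and 5 lower (0.0437%). The higher genes made up 38.5% of those past 1.2-fold, 58.3% past 1.5-fold and 84.6% past 2-fold. Past 1.2-fold, lower genes therefore outnumbered higher ones, and past 2-fold, higher genes outnumbered lower ones. With quantile normalization the counts at 1.2-fold were closer, 355 higher and 437 lower. The spike-in transcripts were also shifted to the lower side, and their part in the excess of lower genes past 1.2-fold was not tested. Just inside the 2-fold threshold lay hphd-1 (1.02) and igcm-1 (−1.05), and just outside it dhgd-1 (0.97) and amx-3 (−0.998).

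**Figure D1:**
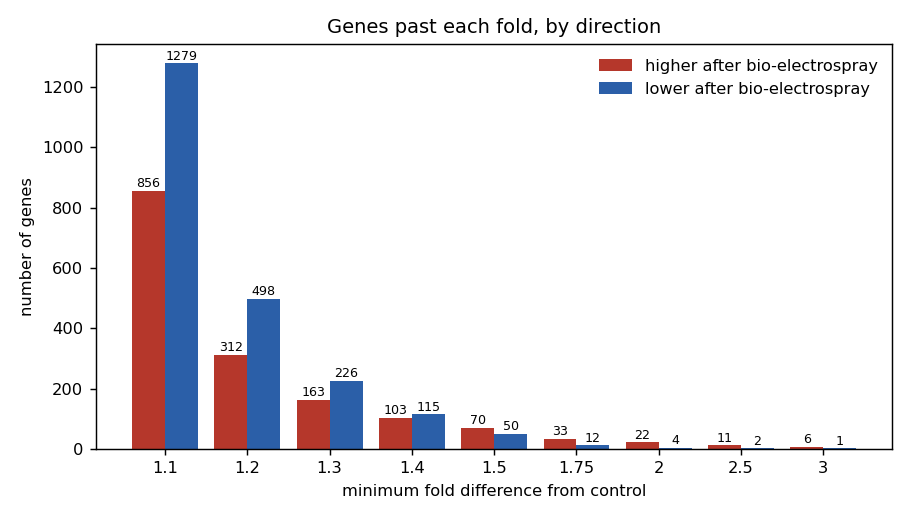
Number of genes (of 8614) at least as far apart as each fold on the x axis, higher (red, left bar) or lower (blue, right bar) after bio-electrospray than in the control, 1 array a group. Lower genes outnumber higher ones at 1.2-fold (498 against 312), and higher ones outnumber lower ones at 2-fold (22 against 4).

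The shares varied with brightness. Among probe sets with a mean level up to 4, 3.66% were higher and 6.40% lower by 1.2-fold or more. Between levels 6 and 7 these shares were 3.53% and 6.93%, between 8 and 9 they were 3.16% and 2.79%, and between 9 and 10, 1.07% and 2.14%. The lower share was thus the larger one in each bin up to level 8 and between 9 and 10, and the median difference was 0 in every brightness bin. The gene acdh-1 stood alone among the bright ones, the single gene above a mean level of 10 at least 2-fold apart.

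**Figure D2:**
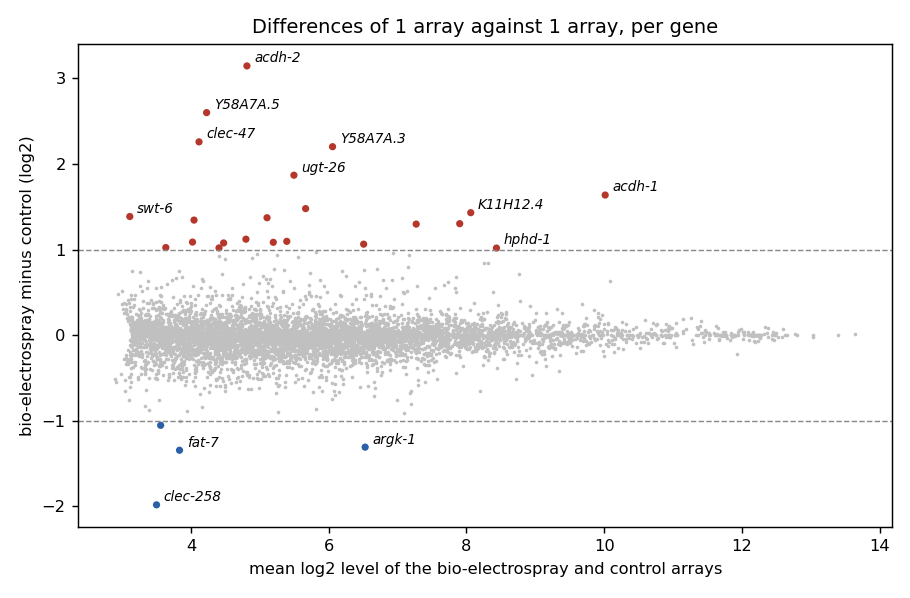
Difference between the bio-electrospray and control arrays (y, log2) against their mean level (x, log2), 1 point a gene. Red points are higher and blue points lower by 2-fold or more after bio-electrospray, dashed lines mark 2-fold, and acdh-1 lies at the bright end while fat-7, clec-258 and swt-6 lie near the floor.

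A second probe set of the same gene gave a view of measurement spread within these arrays, though not between cultures. It was available above the filter for 1947 genes, and the differences of the first and second probe sets lay a median of 0.088 and, at the 95th percentile, 0.343 apart. The 10 genes whose brighter probe set was at least 1.5-fold higher all had a second probe set that was higher too, 9 of them by at least 1.2-fold. Of the 10 at least 1.5-fold lower, 9 had a lower second probe set and 1 an equal one. At 1.2-fold the second probe set bore out less. It was higher for 28 of 36 higher genes and lower for 70 of 115 lower genes, with 4 and 24 of them on the opposite side. Single genes that differed by 1.2-fold to 1.5-fold are therefore given below mostly as members of a class, and those named by themselves carry this limit.

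**Figure D3:**
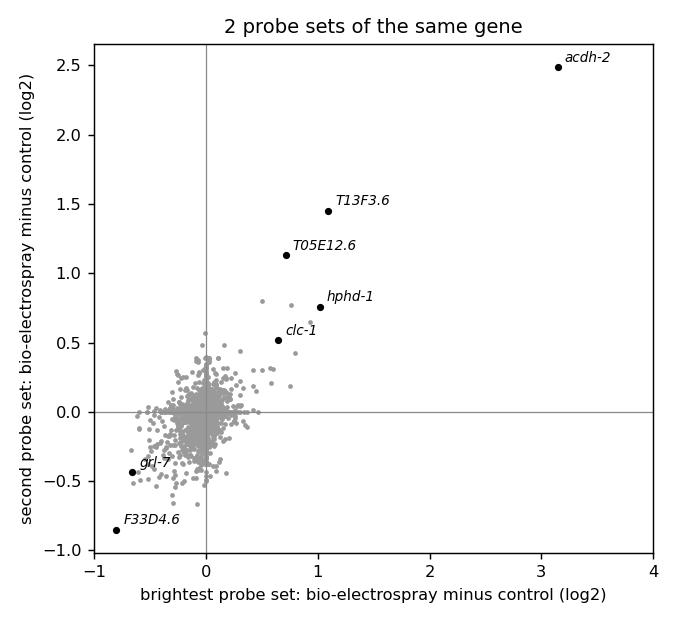
Difference (log2, bio-electrospray minus control) of the brighter probe set (x) and of a second probe set (y) of the same gene, for 1947 genes. The cloud around 0 has little direction, while acdh-2 (3.15 and 2.49), T13F3.6 (1.10 and 1.45) and F33D4.6 (−0.80 and −0.85) lie far out on both axes.

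Genes of propionate breakdown were the most uniformly higher class of those examined. Propionate, which arises when some amino acids and fats are broken down, can leave by a canonical route that needs vitamin B12 or, in this worm, by a set of oxidation steps called the propionate shunt, which is known to be turned on when that route is short of the vitamin. All 5 shunt genes were at least 1.2-fold higher after bio-electrospray, with a median difference of 0.94, where 3.62% of all genes were that far above control. The first enzyme, the dehydrogenase acdh-1, was at 10.83 after bio-electrospray and 9.20 in controls (1.64). The hydratase ech-6 was at 10.40 and 9.77 (0.64), and the hydrolase hach-1 at 7.63 and 6.70 (0.94). The next 2 steps followed the same direction: the dehydrogenase hphd-1 was at 8.94 after bio-electrospray and 7.93 in controls (1.02), and the last enzyme, alh-8, at 9.47 and 9.17 (0.30). A second hphd-1 probe set was at 5.78 and 5.02 (0.76). Only 2 of the 5 genes had a probe set not marked as shared between transcripts, with a median of 1.29. Across the other processing settings the class median was 0.84 to 0.95.

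Other genes tied to the shunt differed among themselves. The gene dhgd-1, named here after its values were seen, encodes a dehydrogenase that works together with HPHD-1, and it was at 6.30 after bio-electrospray and 5.33 in controls (0.97). The nuclear hormone receptor gene nhr-68, a known activator of the shunt, was at 6.97 and 6.51 (0.46), short of 1.5-fold. Its partner nhr-10, also picked after its value was seen, was at 5.69 and 5.67 (0.01). The close relative of acdh-1, acdh-2, had the largest difference on the array, at 6.38 after bio-electrospray and 3.24 in controls (3.15). Its control level lay close to the array median of 3.147, and an offset of 16 on the linear scale brought the difference to 1.97. It stood out from its own family, since the other 7 acyl-CoA dehydrogenase genes above the filter ranged from −0.44 (acdh-6) to 0.19 (acdh-9).

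The canonical route showed no such shift. Its 6 genes had a median difference of 0 and ran from −0.10 for pcca-1, a propionyl-CoA carboxylase subunit gene, to 0.28 for mmaa-1. The B12-dependent mutase gene mmcm-1 differed by −0.01. The upstream breakdown of branched-chain amino acids was likewise level, with none of its 9 genes 1.2-fold apart (bckd-1A −0.22, dbt-1 0.25).

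**Figure D4:**
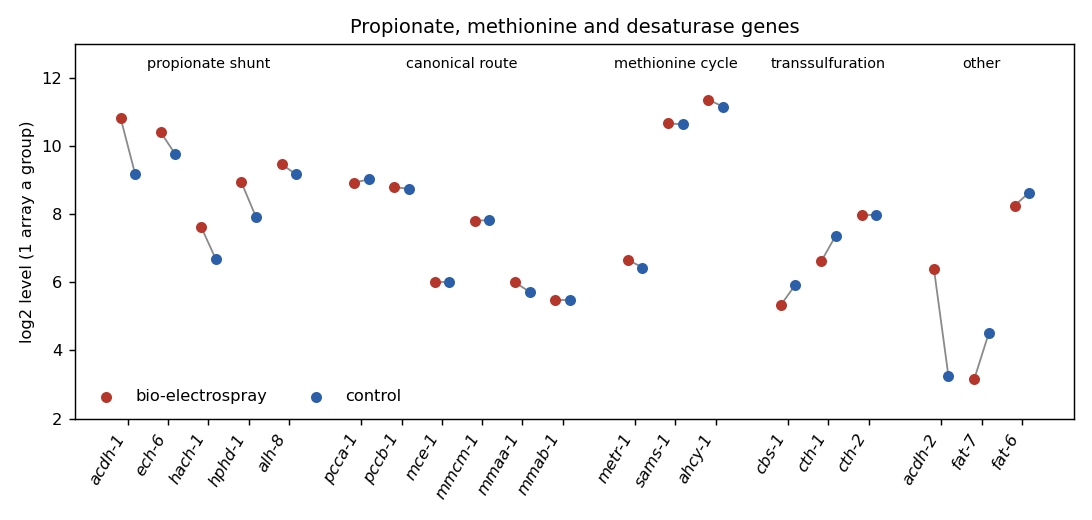
Log2 levels on the bio-electrospray array (red, left) and the control array (blue, right) for genes of the propionate shunt, the canonical route, the methionine cycle, transsulfuration and a few other enzymes, 1 array a group. The 5 shunt genes slope down to the control, the canonical route is nearly flat, and cbs-1, cth-1, fat-7 and fat-6 slope up to the control.

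Methionine and sulfur metabolism was split between the cycle and its outlet. The methionine cycle supplies methyl groups, and transsulfuration carries its homocysteine on to cysteine. In the cycle, the B12-dependent methionine synthase gene metr-1 differed by 0.23, the homocysteine-forming enzyme gene ahcy-1 by 0.21 (11.37 after bio-electrospray and 11.16 in controls) and sams-1, which makes the methyl donor, by 0.03. None of these reached 1.2-fold. Both transsulfuration steps had a gene on the lower side. The cystathionine synthase gene cbs-1 was at 5.34 after bio-electrospray and 5.93 in controls (−0.59), and the cystathionine lyase gene cth-1 at 6.62 and 7.37 (−0.76), while its paralog cth-2 differed by −0.02. These were the 2 genes at least 1.2-fold lower of 13 in the class. The phosphatidylcholine genes pmt-2 (0.15) and pcyt-1 (−0.20) lay within 1.2-fold.

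Among fat genes the stearoyl-CoA desaturases stood apart. These enzymes make oleic acid, the starting point of unsaturated fats. The gene fat-7 was at 3.16 after bio-electrospray and 4.50 in controls (−1.34), and fat-6 at 8.25 and 8.64 (−0.39). The fat-7 level after bio-electrospray lay at the array median, so its fold depends on the background correction. The later desaturase genes fat-1, fat-2, fat-3 and fat-4 ranged from −0.05 to 0.15. For mitochondrial fat oxidation, 2 of 16 genes were at least 1.2-fold higher, the shunt gene ech-6 and the thiolase gene kat-1 (9.09 and 8.75), and 3 were lower, the dim genes ech-1.1 (−0.83), cpt-5 (−0.76) and cpt-6 (−0.41). In the peroxisome, the acyl-CoA oxidase gene acox-1.2 was at 6.85 after bio-electrospray and 7.52 in controls (−0.67), and the transporter gene pmp-5 at 6.75 and 6.13 (0.62). The glyoxylate enzyme gene icl-1, which lets worms make sugar from fat, was at 8.63 and 8.13 (0.51, second probe set 0.30), and it was the single gene 1.2-fold apart among 22 of the citric acid cycle and glyoxylate route. None of 19 glycolysis and gluconeogenesis genes was 1.2-fold apart. The arginine kinase gene argk-1, whose product stores energy as a phosphagen, was at 5.87 after bio-electrospray and 7.18 in controls (−1.31).

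Among detoxification enzymes a few genes stood well above control. UDP-glucuronosyltransferases (ugt genes) attach sugars to foreign compounds, cytochromes P450 (cyp) oxidise them and short-chain dehydrogenases (dhs) reduce or oxidise carbonyl and hydroxyl groups. Of 42 ugt genes above the filter, 24 were higher and 11 lower, against 34.2% and 37.1% of all genes. By at least 1.2-fold, 6 were higher and 2 lower, against 3.62% and 5.78%. Counts of signs here and below hold for the deposited values only, since with quantile normalization 5423 of 8614 genes were higher. The highest were ugt-26 at 6.43 after bio-electrospray and 4.56 in controls (1.87), ugt-29 at 5.01 and 3.93 (1.08) and ugt-28 at 4.81 and 4.10 (0.71). The class median was only 0.03, so the difference sat in a few members. The lowest was ugt-39 (3.66 and 4.10). Among 25 cyp genes, 13 were higher and 3 lower, with 3 and 0 at 1.2-fold, led by cyp-14A5 at 6.08 after bio-electrospray and 5.36 in controls (0.72). Among 21 dhs genes, 12 were higher and 6 lower, with 4 and 0 at 1.2-fold. Their highest, dhs-25, was at 7.04 and 5.98 (1.06). Glutathione S-transferases were balanced, with 2 of 21 higher (gst-38 0.63, gst-22 0.44) and 2 lower at 1.2-fold (gst-20 and gst-13, both −0.30).

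Efflux and sensing were narrower. The P-glycoprotein genes, which encode pumps that move compounds out of cells, had pgp-5 at 4.57 after bio-electrospray and 3.48 in controls (1.09) and pgp-9 at 5.78 and 5.37 (0.41) among 9 genes, whereas none of 19 other ABC transporter genes was 1.2-fold apart. Of the nuclear hormone receptor genes, 46 were higher, 14 lower and 44 equal (34.2%, 37.1% and 28.7% of all genes). Their median was 0, and 5 (nhr-106, nhr-68 and nhr-6 foremost) were higher and 2 lower by 1.2-fold. None of 20 genes for enzymes that remove reactive oxygen and none of 10 metal response genes was 1.2-fold apart.

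Several of the higher genes were neighbours. In the RefSeq gene order, 9246 pairs of genes above the filter lay next to each other or with 1 gene between them, and both members were at least 1.5-fold higher in 4 pairs. These were ugt-26 with ugt-28, Y58A7A.3 (2.20) with Y58A7A.5 (2.60), C49G7.10 (1.48) with irg-2 (0.68), and T05E12.6 (0.71, second probe set 1.13) with the chemoreceptor gene srh-237 (0.65). The 1 pair with both members at least 1.5-fold lower was cth-1 and argk-1. Probes that read a close copy next door cannot be set apart from a joint difference in the ugt and Y58A7A pairs.

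Claudin-like, aquaporin and SWEET transporter genes had their largest differences on the higher side. Claudins and their relatives span the membrane at cell contacts and help to seal epithelia. Of 12 claudin-like genes above the filter, 9 were higher and 2 lower, with a median difference of 0.22. By at least 1.2-fold, 6 of these genes were higher and 0 lower, against 3.62% and 5.78% of all genes. The brightest, clc-19, was at 8.55 after bio-electrospray and 7.25 in controls (1.30). The gene clc-1, whose product lies in the epithelium of the pharynx, was at 7.11 and 6.46 (0.65), and its second probe set at 7.07 and 6.55 (0.52). For clc-2 the brighter probe set differed by 0.47 and the second by 0.00. The others past 1.2-fold were clc-25 (0.51), vab-9 (0.40), which encodes a protein of epithelial junctions, and clc-7 (0.35). Without probe sets shared between transcripts, 10 genes were left, 6 of them higher, and the median was 0.05. Across all settings it ran from 0.012 with no level filter to 0.37 with the filter at the 75th percentile. The aquaporin genes, for water and glycerol channels, were higher in 6 of 7 cases with a median of 0.13, and aqp-7 was the one past 1.2-fold, at 8.64 and 8.28 (0.36). Sugar transporters of the SWEET family had swt-6 at 3.80 after bio-electrospray and 2.42 in controls (1.39), where the control level lay below the array median, and swt-7 at 7.34 and 6.85 (0.49). Genes for the osmolytes glycerol and trehalose had 0 of 16 higher and 1 lower (osm-8 −0.38) at 1.2-fold, and chloride channel and bestrophin genes had 1 of 16 on each side (best-13 0.33, best-22 −0.27).

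Intestinal digestion and defence genes were mixed. Of 8 lysozyme genes, 6 were higher and 2 lower, with a median of 0.12, and lys-4 was at 8.73 after bio-electrospray and 7.88 in controls (0.85). The lysozyme median was 0.016 with no level filter and 0.032 without shared probe sets. The cathepsin B-like protease genes had a median of 0.10, led by cpr-4 at 9.85 and 9.49 (0.37), and a median of 0 without shared probe sets. The aspartyl protease genes diverged, with asp-12 (0.58) and asp-13 (0.43) higher and asp-14 (−0.47) lower. All 7 intestinal markers were at or above their control level, with a median difference of 0.08, and their part in these class medians was not tested. The infection response genes irg-1 (4.92 after bio-electrospray and 3.90 in controls), irg-2 (4.21 and 3.53) were higher, as was irg-8 (by 0.30), whereas dod-24 was at 6.63 and 7.54 (−0.91) and irg-3 at 6.92 and 7.29 (−0.37). In all, 3 of 13 genes of this class were higher and 3 lower by 1.2-fold.

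C-type lectins are secreted sugar-binding proteins. Among 43, 4 were higher and 4 lower by 1.2-fold. The gene clec-47 was at 5.24 after bio-electrospray and 2.99 in controls (2.26), clec-4 at 7.42 and 6.46 (0.96), and clec-258 at 2.51 and 4.49 (−1.98). Both clec-47 in controls and clec-258 after bio-electrospray lay below the array median. An offset of 16 on the linear scale brought their differences to 1.17 and −0.83. F-box genes of the fbxa family encode substrate adaptors of ubiquitin ligases and form one of the worm's large variable families. Against 34.2% and 37.1% of all genes, fbxa genes were higher in 26 and lower in 10 of 44 cases. Of the 44, 8 passed the level filter on 1 array only. With no level filter 8929 genes were higher and 3511 lower, and the part of dim levels in the fbxa count was not tested. By at least 1.2-fold, 6 fbxa genes were higher and 3 lower, against 3.62% and 5.78% of all genes. The higher ones were led by fbxa-128 (4.87 and 3.95), fbxa-14 (5.39 and 4.69), fbxa-74 (3.69 and 3.06, the control level below the array median) and fbxa-60 (4.49 and 3.86). The related fbxc-58 was at 4.72 after bio-electrospray and 3.37 in controls (1.34).

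The genes of voltage-gated calcium and sodium leak channels were lower or equal on the bio-electrospray array. Voltage-gated calcium channels admit calcium into muscle and neurons when the membrane is depolarised, and a sodium leak channel sets the resting excitability. Of 7 genes of this group above the filter, 0 were higher and 6 lower, 3 of them by at least 1.2-fold, with a median of −0.25, where 5.78% of all genes were that far below control. The auxiliary subunit genes tag-180 (4.39 after bio-electrospray and 4.82 in controls) and unc-36 (4.18 and 4.46) differed by −0.43 and −0.28. The muscle channel gene egl-19 was at 5.35 and 5.60 (−0.25), and the neuronal channel gene unc-2 at 4.14 and 4.23 (−0.09). The sodium leak channel partners unc-80 (4.28 and 4.62) and unc-79 (3.91 and 4.11) differed by −0.34 and −0.21, and the beta subunit gene ccb-1 had equal values. Across the other settings the group median lay between −0.25 and −0.16, and no member was 1.5-fold apart.

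Other channel families had medians of 0 and showed single genes on either side. Counts at 1.2-fold in this paragraph stand beside 3.62% of all genes higher and 5.78% lower. Voltage-gated and calcium-gated potassium channel genes had 1 of 9 higher and 4 lower, with exp-2 (−0.28) and kvs-5 (−0.27) past 1.2-fold, and the calcium-gated slo-1 and slo-2 differed by −0.04 and 0.00. Among 16 two-pore potassium channel genes, twk-17 (−0.55) and unc-58 (−0.39) were lower and twk-1 (0.30) higher by 1.2-fold. None of 7 TRP channel genes was 1.2-fold apart, and 1 each of 17 DEG/ENaC and touch genes (acd-3, −0.38) and of 20 ligand-gated channel genes (lgc-22, −0.56) was lower. Of 18 genes of synaptic release, 3 were lower by 1.2-fold, namely the vesicle priming gene unc-13 (−0.38, second probe set −0.31), the calcium sensor gene snt-1 (−0.37 and −0.10) and the vesicle motor gene unc-104 (−0.35 and 0.01), and 0 were higher. The innexin gap junction genes inx-10 (−0.62) and inx-14 (−0.27) were lower among 17. Neuropeptide genes were balanced, with 1 higher and 1 lower among 22 flp genes and likewise among 41 nlp genes. The 7 neuronal markers had a median difference of −0.08, and the part of neuronal RNA in these values was not tested.

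**Figure D5:**
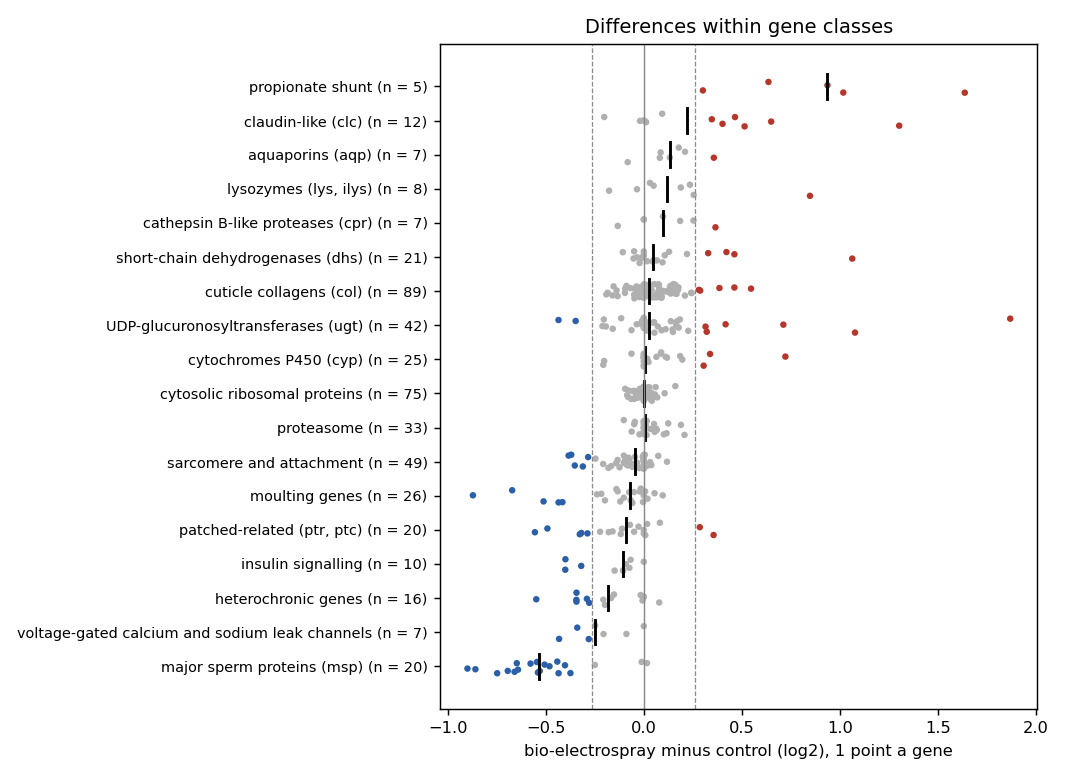
Differences (log2, bio-electrospray minus control) of the genes above the level filter in 18 gene classes, 1 point a gene, with a black bar at each class median and dashed lines at 1.2-fold. Red points are higher and blue points lower by 1.2-fold or more. The propionate shunt lies to the right (median 0.94), ribosomal proteins sit on 0, and the major sperm proteins lie to the left (median −0.54).

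Genes that time larval development were mostly lower. Heterochronic genes set which stage-specific pattern of divisions and cuticle a larva carries out. Of 16 above the filter, 1 was higher and 13 lower, against 34.2% and 37.1% of all genes. Of the 13, 6 were lower by at least 1.2-fold, against 5.78% of all genes, and the class median was −0.18. The hunchback-like gene hbl-1 was at 5.24 after bio-electrospray and 5.79 in controls (−0.55), lin-29, the zinc finger gene of the switch to adult fates, at 5.75 and 6.09 (−0.34), and the steroid receptor gene daf-12 at 6.38 and 6.73 (−0.34). The casein kinase gene kin-20 (6.16 and 6.50) and the microRNA effector genes ain-1 (5.83 and 6.12) and alg-2 (6.30 and 6.58) were the others past 1.2-fold, but their second probe sets differed by 0.02 and 0.00. By contrast lin-28, lin-46, lin-66 and nhr-25 lay within 0.02 of their control level. Insulin signalling in first-stage larvae holds the arrest or release of growth. Its genes were higher in 0 and lower in 9 of 10 cases, against 34.2% and 37.1% of all genes, with a median of −0.11. The 3 past 1.2-fold were ist-1 (−0.40), the phosphoinositide kinase gene age-1 (4.38 after bio-electrospray and 4.78 in controls) and the phosphatase subunit gene pptr-1 (3.18 and 3.50). The second probe sets of ist-1 and age-1 had equal values. So did those of akt-1 and daf-18, whose brighter probe sets differed by −0.07 and −0.11. The transcription factor gene daf-16 differed by −0.11 (second probe set −0.36). The insulin-like peptide genes themselves showed no such shift, none of 10 being 1.2-fold apart.

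Moulting genes were lower in 20 and higher in 4 of 26 cases, against 37.1% and 34.2% of all genes. At 1.2-fold 5 were lower and 0 higher, against 5.78% and 3.62%, and the median was −0.07. The bright noah-1, for a protein of the outer matrix, was at 9.14 after bio-electrospray and 9.55 in controls (−0.41, second probe set −0.47), acn-1 at 7.31 and 7.82 (−0.51, second probe set −0.20) and the protease inhibitor gene mlt-11 at 7.23 and 7.66 (−0.43, second probe set −0.23). The gene mlt-9 was at 4.90 and 5.57 (−0.67, second probe set −0.28). The astacin protease gene nas-37, whose product opens the old cuticle, was at 2.95 and 3.82 (−0.87). The astacin proteases as a class had 0 of 16 higher and 5 lower at 1.2-fold, against 3.62% and 5.78% of all genes. Besides nas-37, the lower ones were nas-27 (−0.63), nas-6 (−0.49), nas-11 and nas-4 (both −0.34).

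Hedgehog-related and patched-related proteins are secreted and membrane proteins of the epidermis, many of them needed for moulting. Of 27 hedgehog-related genes, 7 were lower and 1 higher by 1.2-fold, against 5.78% and 3.62% of all genes. The bright grl-7 was at 7.86 after bio-electrospray and 8.52 in controls (second probe set −0.43), grl-15 at 6.87 and 7.52, wrt-1 at 5.45 and 6.11, and the dim grl-10 at 2.72 and 3.37, each −0.66. Of the rest, wrt-4 (−0.52), wrt-6 (−0.48) and wrt-9 (−0.27) were lower and wrt-8 (0.27) was higher by 1.2-fold, and the class median was −0.01. The 20 patched-related genes had 5 lower and 2 higher at 1.2-fold, against the same 5.78% and 3.62%, with a median of −0.09. Lowest were ptr-18 (4.96 and 5.51) and ptr-6 (4.59 and 5.08, second probe set −0.28).

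Cuticle collagens split by kind. The large col family was higher in 62, lower in 20 and equal in 7 of 89 cases, against 34.2%, 37.1% and 28.7% of all genes. With quantile normalization 5423 of 8614 genes were higher, so the col count stands for the deposited values alone. The col median was only 0.03, and 5 genes were past 1.2-fold, all of them below a level of 5 (col-88 at 3.77 after bio-electrospray and 3.22 in controls, col-183 at 3.80 and 3.34). The furrow and body-shape collagens had a median of −0.02. Of 17, 4 were lower and 0 higher at 1.2-fold, against 5.78% and 3.62% of all genes. The 4 were lon-3 at 6.15 and 6.75 (−0.60), dpy-8 at 6.09 and 6.57 (−0.48), sqt-2 at 8.98 and 9.34 (−0.36) and sqt-1 (−0.27). The low-complexity abu and pqn genes had 6 of 57 lower and 0 higher, led by pqn-13 (−0.55, second probe set −0.34). No epidermal attachment gene, of 12, was 1.2-fold apart. The hypodermal markers had a median difference of 0.01, from −0.28 (lin-26) to 0.19 (dpy-7).

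Muscle genes lay close to control, with a median of −0.04. Of 49, 30 were lower, 7 higher and 12 equal (37.1% and 34.2% of all genes were lower and higher). The 5 past 1.2-fold were all lower, where 5.78% of all genes were that far below control. They were unc-95 (6.06 after bio-electrospray and 6.44 in controls), the giant kinase gene unc-22 (6.38 and 6.75, second probe set −0.33), the integrin gene pat-3 (8.06 and 8.41, second probe set −0.26), unc-98 (4.02 and 4.33) and the troponin C gene tnc-2 (6.76 and 7.05). The major filament genes lay closer to control, unc-54 at 11.49 and 11.46 and unc-15 at 10.88 and 10.90.

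The major sperm protein (msp) genes had the lowest median of the classes with at least 3 genes above the filter. These near-identical genes encode the cytoskeletal protein of crawling sperm. Of 20 above the filter, 19 were lower and 1 higher, with a median of −0.54. By at least 1.2-fold, 17 were lower and 0 higher, against 5.78% and 3.62% of all genes. For instance msp-77 was at 4.81 after bio-electrospray and 5.71 in controls (−0.90), msp-36 at 5.38 and 6.24 (−0.86) and msp-65 at 5.67 and 6.42 (−0.75). Every one of the 20 was read by a probe set marked as shared between transcripts, so the members cannot be told apart and their count is not a count of separate measurements. Other sperm genes did not go with them. The 9 above the filter had none 1.2-fold apart and a median of 0.02, and the defining genes spe-9, spe-11, gsp-3, gsp-4 and ssp-10 lay below the array median on both arrays. The summed level of the sperm marker list was 7.34 after bio-electrospray and 7.98 in controls on the log2 scale, but the list holds msp-36, msp-77 and msp-78, and its other 6 genes differed by at most 0.023.

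Germline and cell division genes held to control on balance. P granule and germline RNA-binding genes had 3 of 33 higher and 3 lower at 1.2-fold. The higher ones were the maternal regulators oma-2 (4.05 after bio-electrospray and 3.64 in controls), spn-4 (4.89 and 4.55, second probe set 0.00) and puf-3 (3.21 and 2.91), and the lower ones mes-4 (4.42 and 4.91, second probe set −0.26), gld-3 (3.57 and 3.96, second probe set −0.21) and pgl-3 (5.14 and 5.44). DNA replication and mitosis genes likewise had 3 of 62 on each side, with the kinesin gene klp-18 (0.42) highest and the kinesin gene zen-4 (−0.47, second probe set 0.01) lowest. Of 34 DNA damage and repair genes, 1 was 1.2-fold apart, cku-80 (−0.39), an end-joining gene. None of 27 homeobox genes was 1.2-fold apart.

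Many housekeeping and stress classes were level. Among 75 cytosolic ribosomal protein genes 24 were higher, 24 lower and 27 equal, and the range was −0.09 (rps-18) to 0.16 (rpl-9). The 33 proteasome genes ran from −0.10 (pbs-6) to 0.21 (pbs-7), the 19 vacuolar ATPase genes from −0.15 (vha-11) to 0.12 (vha-12), and the 17 cell death and engulfment genes from −0.13 (ced-11) to 0.18 (psr-1). None of 27 J-domain chaperone genes and none of 30 translation initiation factor genes was 1.2-fold apart. The respiratory chain had 1 of 42 (cox-19, −0.30). Of 20 endoplasmic reticulum stress genes, the factor gene xbp-1 was higher (0.31, second probe set 0.22) and the sensor gene atf-6 lower (−0.34, and 0.072 without shared probe sets) by 1.2-fold. Of 61 autophagy and lysosome genes, 2 were higher and 1 lower, the receptor gene sqst-1 at 8.10 after bio-electrospray and 7.60 in controls (0.50, second probe set 0.80), vps-33.1 (0.29) and vps-41 (−0.49). The mitochondrial protease gene spg-7 was at 3.15 and 3.90 (−0.75) and was the single one of 11 mitochondrial stress genes past 1.2-fold. The 2 small heat shock genes past 1.2-fold, of 7, were dim, hsp-16.2 at 3.54 and 3.03 and sip-1 at 4.46 and 4.09 (second probe set 0.00). Of 12 cytosolic HSP70, HSP90 and HSP110 genes, hsp-70 (0.33) was the single one past 1.2-fold. Of 14 chaperonin and prefoldin genes, 2 were lower by 1.2-fold, with pfd-6 (−0.36) lowest, and 0 were higher. Of the 97 classes with at least 3 genes above the filter, 83 had a median within 0.05 of 0, 5 were above that and 9 below.

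Genes without a functional name were described by their sequence names alone. Of 2771 such genes, 4.40% were 1.2-fold higher or more after bio-electrospray and 5.63% as far below control, and 8 were 2-fold higher against 0 lower. Of 5843 named genes, 3.25% were higher and 5.85% lower at 1.2-fold, and 14 and 4 at 2-fold. Among the sequence-named, Y58A7A.5 was at 5.53 after bio-electrospray and 2.93 in controls, Y58A7A.3 at 7.16 and 4.95, K11H12.4 at 8.78 and 7.35 and F53B2.8 at 7.92 and 6.62. T13F3.6 was higher by 1.10 and by 1.45 on its second probe set, F14F9.4 by 1.12 and F13A7.11 by 1.08. On the other side F33D4.6 was at 6.79 and 7.59 (−0.80, second probe set −0.85).

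Values of the heat shock array stand beside these differences, and both comparisons share the control array. Of the 22 genes at least 2-fold higher after bio-electrospray, 11 were also at least 2-fold higher after heat shock, 11 lay within 2-fold and 0 were 2-fold lower. Of the 4 genes at least 2-fold lower, 3 were also 2-fold lower after heat shock. Of all 8614 genes, 6.88% were 2-fold higher and 8.61% were 2-fold lower after heat shock, and what the shared control array adds to the counts above was not tested. The genes high on both arrays included clec-47 (2.26 after bio-electrospray and 2.87 after heat shock, both minus control), Y58A7A.5 (2.60 and 2.50) and rcd-1 (1.37 and 2.02), and also gem-4 (1.02 and 2.36), which encodes a copine. In controls, clec-47 (2.99), Y58A7A.5 (2.93), gem-4 (3.12) and the likewise shared swt-6 (2.42) lay below the array median of 3.147. These genes passed the filter only through the bio-electrospray array, and their low control values enter both differences. Of the propionate genes, acdh-1 was above control in both (1.64 and 1.11), while hphd-1 was at 1.02 and −0.81. The related acdh-2 was at 3.15 and −0.07. The genes irg-1 (1.02 and −0.07) and pgp-5 (1.09 and −0.08) were likewise near control on the heat shock array.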

How the data were processed

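The deposited values are log2 levels per probe set, made by the authors with GCRMA per the submitters' processing notes; its version and options are not given in the sources used here. GCRMA as usually run corrects background and normalizes arrays by quantiles, and dim probe sets then lie on a floor, where folds depend on that correction. Scanner files were not used here. Gene names came from the platform's annotation (probe sets: 20766 with 1 symbol, 887 with several, 972 with none), and 20701 single-symbol ones matched the RefSeq gene table (WBcel235), used only for names and gene order. The level filter was the array median (percentile 50), and the brightest probe set over the 3 arrays stood for a gene. The number of columns of no sample was 0.

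With 1 array a group no test was run: levels were subtracted and genes counted by size. Genes were placed in 98 classes by name. Members and lists were chosen with earlier results of these data known. Named were the 15 highest and 15 lowest genes, every probe set 2-fold apart, up to 4 genes of a class with the largest differences, and all genes of classes of at most 12; further class members and second probe sets were named after their values were seen. Alternatives are in the closing section. The counting was tested on simulated data. Computations used Python 3.11.15, numpy 2.4.6, pandas 2.3.3, scipy 1.17.1, statsmodels 0.14.6 and matplotlib 3.10.9.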

Additional observations from a re-analysis of the deposited data

Results flagged for a closer look

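A few probe sets at least 2-fold apart read more than 1 gene and so stood outside the comparison by gene. The probe set shared by the P-glycoprotein genes pgp-7 and pgp-6 was higher by 2.13 after bio-electrospray, at 5.95 in sprayed larvae and 3.83 in controls. The probe set shared by F10G8.1 and C55B7.3 was higher by 1.14. The probe set shared by dod-21 and cld-1 differed by −1.69, at 3.36 after bio-electrospray and 5.05 in controls.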

How the results depend on the processing

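No paired analysis was possible because each group had 1 array and the labels give no replicate numbers. Of 858 recomputed class medians 826 were counted as unchanged, 32 as moved and 0 as reversed. The yardstick was the 95% order-statistic interval over the class's genes, a wide tolerance in small classes. The smallest classes, the propionate shunt with its 5 genes among them, had no such interval, so it did not judge their medians. Within their intervals, the claudin-like median ran from 0.012 to 0.37, lysozymes from 0.016 to 0.19 and dhs genes from 0.017 to 0.068. Of 3616 recomputed gene values 3581 moved by less than 0.343, the spread of second probe sets. Reversed were atf-6 (−0.34) at 0.072 without shared probe sets, and hil-3 (−0.27) at 0.30 without them and 0.014 as a mean over probe sets. The cause was not tested. With no level filter 8929 genes were higher and 4678 equal. At the 75th percentile 1540 were higher, 1923 lower and 1062 equal, 160 and 252 were 1.2-fold higher and lower, and 1 probe set was 2-fold lower, fewer having been tested. A filter on both arrays left 3. Quantile normalization gave 5423 higher and 55 equal genes, and loess centring 0 equal. With 16 added to the linear levels, 12 and 1 probe sets were 2-fold higher and lower and 151 and 198 genes 1.2-fold, and the msp median was −0.33. Without shared probe sets 15 and 3 probe sets were 2-fold apart. At 1.5-fold 84 and 69 probe sets and 70 and 50 genes, and at 3-fold 8 and 2 probe sets, were higher and lower. The nhr median (0) was 0.0088 with no filter, 0.018 with quantile normalization and −0.00013 with loess. Near the floor folds shrink with the offset: acdh-2 was then 1.97, clec-47 1.17, swt-6 0.49, fat-7 −0.63 and clec-258 −0.83.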
